A study of Mus musculus with 7 samples.

Results

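Type I interferon-stimulated genes are genes whose transcription rises in most cells when type I interferon binds its receptor. They were described here as 44 genes, taken by symbol from the 56691 genes in the count table. The list held antiviral effectors, oligoadenylate synthetases, nucleic acid sensors, enzymes of the ISG15, ubiquitin and ADP-ribose systems with feedback genes, STAT and IRF transcription factors, and interferon receptors. All 44 symbols were found in the table, and all 44 were among the 13683 genes with enough counts to be tested. They were grouped by the known function of the protein.

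Whole livers of male C57BL/6J mice, an inbred laboratory strain, were measured by bulk RNA sequencing of polyadenylated RNA. The mice were bought at 8 weeks of age, kept for 2 weeks before use and divided at random, with 6 mice in each group of the study. RNA sequencing data of 4 control mice and 3 LPS-treated mice were used, and mice given sulforaphane were not analysed here. The LPS group received lipopolysaccharide (LPS), the outer membrane glycolipid of Gram-negative bacteria, at 10 mg/kg into the peritoneum, and livers were taken after 24 h. What the control mice received, if anything, is not given in the sources used here. The labels number the samples within each group and do not say whether each number is a separate mouse, nor how litters, cages or days were spread over them. The study counts each as a mouse, and the p-values measure the spread between these samples. Total counts were 14991022, 15096573, 15721944 and 18584140 for the control mice, in order of replicate number, and 20500391, 17095607 and 17821331 for the LPS-treated mice.

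Type I interferons bind the receptor chains IFNAR1 and IFNAR2, which carry the kinases TYK2 and JAK1. The kinases phosphorylate STAT2, which joins IRF9 in a complex that binds the interferon-stimulated response element in front of the target genes. LPS reaches this pathway through Toll-like receptor 4, whose adaptor TRIF leads to IRF3 and to interferon beta, and in liver the sinusoidal macrophages called Kupffer cells are among the cells that meet LPS early.

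The question was how each functional class of these genes differed between LPS-treated and control livers. Levels are given in CPM, the counts of a gene relative to the counts of its library after scaling between libraries, and the values of a group are always in the order of its replicate numbers. A log2 fold change is LPS against control and is given ± its standard error. A gene was called higher or lower at p below 0.05 in the quasi-likelihood test of edgeR, adjusted by Benjamini-Hochberg over all genes tested. Of the 44 members, 22 were called higher, against 13.3% of all genes tested. Bst2 was the 1 member called lower, against 13% of all genes tested, and the other 21 were not called. The same shares of all genes apply to the counts called in each class and list below, in the fit of all mice. A log2 fold change above 1 was reached by 16 of the 22 members called higher, and 7.81% of all genes tested were called higher with such a fold. Without LPS replicate 1, 9 members were called higher with it. Bst2 lay at -0.96, and no member was called lower with a log2 fold change below -1, by edgeR, at unadjusted p < 0.05 or by DESeq2, which gave no adjusted p for Ifit1, Ifit2, Mx1, Rsad2 and Cmpk2. Without LPS replicate 1, Bst2 and Cmpk2 were called lower with such a fold. Among all genes tested by edgeR, 7.31% were called lower with such a fold. The median log2 fold change was 0.91 over the members and -0.01 over all genes tested. A positive log2 fold change was found for 42 members in all mice, for 39 when counts were scaled by library totals alone, and for 33 without LPS replicate 1. In 19 members the lowest LPS-treated mouse was above the highest control mouse, which held for 18.1% of all genes tested. In bulk liver, fewer cells of a type and less RNA per cell cannot be told apart.

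The 3 LPS-treated mice did not carry these genes alike. The summed CPM of the 44 members was 938, 815, 842 and 809.8 in control mice and 1775, 1028 and 1028 in LPS-treated mice. By this sum LPS replicate 1 stood well above LPS replicates 2 and 3, which in turn were above all 4 control mice. LPS replicate 1 had the highest level of the LPS-treated mice in 37 members, LPS replicate 2 in 5 and LPS replicate 3 in 2. It was above every control mouse in 39 members, LPS replicate 2 in 26 and LPS replicate 3 in 24. Over all genes tested, the same was found for 28.07%, 30.11% and 29.88% of genes in these mice, so LPS replicate 1 did not stand apart by that count over the whole table. The median log2 ratio of the members to the control mean was 1.59, 0.42 and 0.33 in LPS replicates 1, 2 and 3. Levels of LPS replicates 2 and 3 were close to each other: the log2 ratios between them had an SD of 0.10 over 1729 well-counted genes, against 0.31 between either of them and LPS replicate 1 and at least 0.29 between control mice. Counting error alone would give 0.0457, which libraries of a single liver could exceed as well, so the SD does not show that LPS replicates 2 and 3 came from separate mice. A figure legend of the study counts each sequenced liver as a mouse, and they were tested as separate mice.

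Without LPS replicate 1, 14 members were called higher, of which 13 were among the 22 called with all mice, and the median log2 fold change was 0.38. Of the 13975 genes tested in that fit, 11.3% were called higher and 11.1% lower. Ifnar1 was the 1 member added, at 0.63 (adjusted p = 0.035). Bst2 and Cmpk2 were called lower without this mouse. The higher call was lost by 9 members in this fit, Ifit3, Ifit3b, Samhd1, Ifi44, Oas1g, Dhx58, Isg15, Herc6 and Parp14. In every fit that left out 1 mouse, 12 members were called higher: Mx2, Ifi27l2a, Xaf1, Oas1a, Oas3, Oasl2, Zbp1, Usp18, Trim30a, Parp9, Irf7 and Ifngr2. Bst2 was called lower in all of them.

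Other measures of LPS replicate 1 differed from those of LPS replicates 2 and 3. Its library was the deepest of the 7. Mitochondrial genes took 6.45% of its counts, against 3.83% and 3.94% in LPS replicates 2 and 3 and 7.48% to 23.7% in control mice. Haemoglobin genes summed to 112 CPM in it, against 23.1 and 26.9 CPM in LPS replicates 2 and 3 and 101 to 241 CPM in control mice. The summed CPM of 11 Kupffer cell and macrophage markers was 149.6, 208, 193 and 129.7 in control mice and 739, 160.0 and 166 in LPS-treated mice. Clec4f was the most abundant of them in each control mouse and Marco, a scavenger receptor, in each LPS-treated mouse. Marco measured 2.48, 5.55, 4.34 and 2.37 CPM in control mice and 409.7, 66.5 and 65.6 CPM in LPS-treated mice. This gene held 55.5%, 41.6% and 39.5% of the sum in LPS replicates 1, 2 and 3. The place of LPS replicates 2 and 3 within the control range of the sum therefore rests on Marco. Of the 11 markers, 5 were called higher and Clec4f was called lower, and none was at 0 in all mice. In the fit without LPS replicate 1, 3 markers were called higher and 4 lower. Clec4f and Timd4, which mark resident Kupffer cells, had 24.1, 5.48 and 7.28 CPM and 12.9, 0.0644 and 0.623 CPM in LPS replicates 1, 2 and 3, against control means of 54.4 and 4.08 CPM. Whether depth, mitochondrial or blood RNA, or the macrophage markers played a part in the members' levels in this mouse was not tested.

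**Figure D1:**
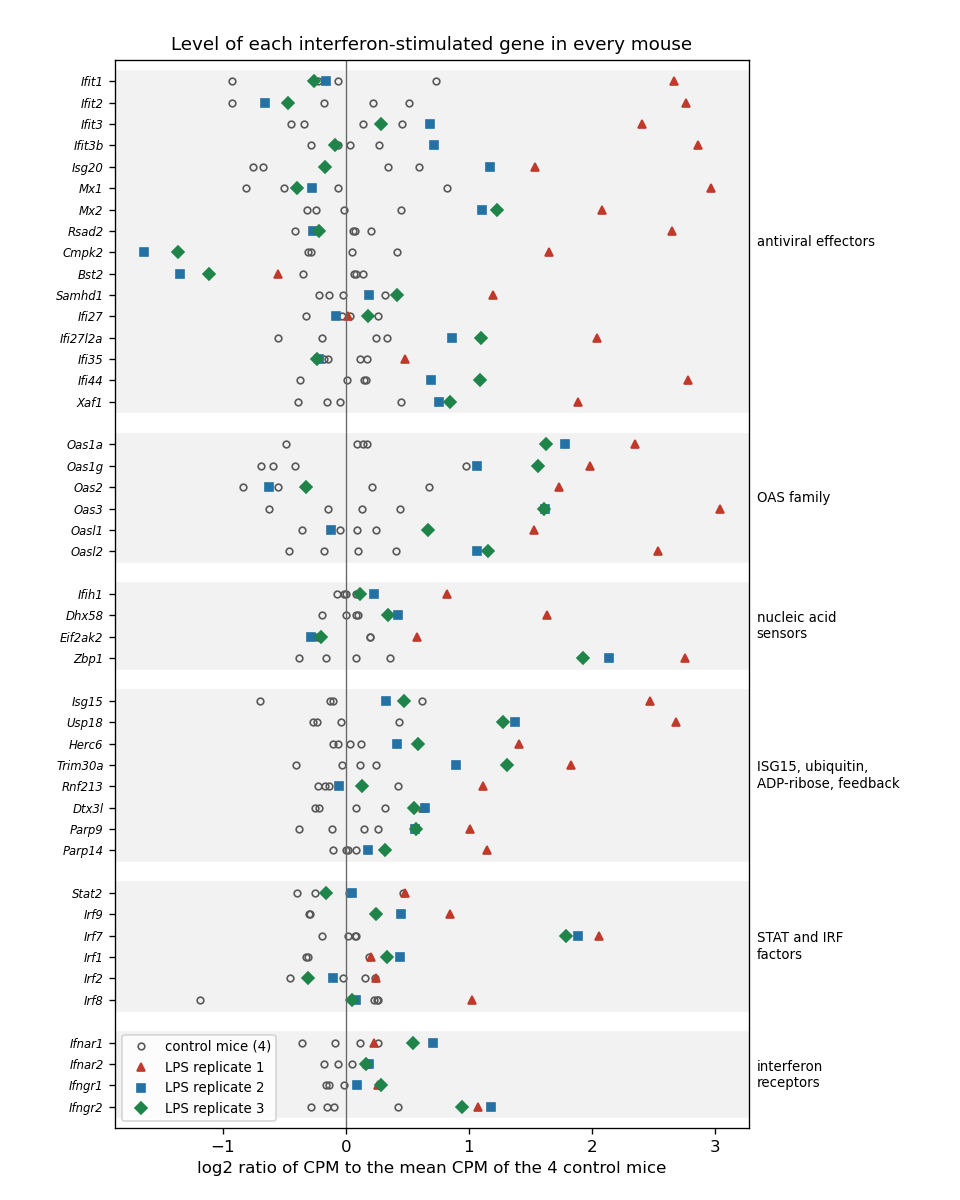
Log2 ratio of the CPM of each of the 44 members to the mean CPM of the 4 control mice (horizontal axis), with genes grouped by role on the vertical axis, open circles for control mice and filled symbols for each LPS-treated mouse. LPS replicate 1 lies above every control mouse in 39 genes, and the antiviral effectors have median log2 ratios of 2.06, 0.06 and -0.13 in LPS replicates 1, 2 and 3.

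Antiviral effectors act on viral RNA, nucleotides or particles. Of the 16 effectors, 7 were called higher, Bst2 was called lower and 8 were not called, with a median log2 fold change of 1.42. Their summed CPM was 308, 269, 275 and 256 in control mice and 600.2, 232 and 249 in LPS-treated mice. By this sum LPS replicate 1 was above every control mouse and LPS replicates 2 and 3 were below every control mouse. Bst2 decided the latter, since without it the sum was 203, 169, 174 and 181 in control mice and 535, 194 and 205 in LPS-treated mice. Bst2 was the most abundant effector in each control mouse, Ifit3 in LPS replicate 1 and Ifi27 in LPS replicates 2 and 3, by CPM without regard to length. Of the effectors, 14 were above every control mouse in LPS replicate 1, against 7 in LPS replicate 2 and 5 in LPS replicate 3. Over all genes tested, 28.07%, 30.11% and 29.88% were above every control mouse in these mice. The 5 of 16 effectors in LPS replicate 3 were near that share. Leaving out LPS replicate 1 brought the count called higher from 7 to 3, and leaving out control replicate 2 brought it to 4. The median log2 fold change of the effectors was 0.19 without LPS replicate 1. With no filter on low counts, 11 effectors were called higher, with Ifit1, Ifit2, Mx1 and Rsad2 added, and with LPS replicates 2 and 3 summed into 1 sample Ifit1 and Rsad2 were added.

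Ifi44, an interferon-induced protein, had the largest fold among the effectors called higher, with 3.47, 2.40, 3.12 and 3.44 CPM in control mice and 21.3, 5.02 and 6.60 CPM in LPS-treated mice. Its log2 fold change was 1.83 ± 0.42 (adjusted p = 0.00684) and the groups did not overlap, with LPS replicate 1 the highest by far. Without that mouse it was 0.91 (adjusted p = 0.0589). Samhd1, which breaks down deoxynucleotides that viruses need, had the smallest, with 21.2, 16.7, 14.6 and 15.4 CPM in control mice and 38.8, 19.3 and 22.6 CPM in LPS-treated mice. It was called at 0.67 ± 0.23 (adjusted p = 0.0476), and LPS replicate 2 lay within the control range. The call of Samhd1 was lost without LPS replicate 1, at 0.31 (adjusted p = 0.29), and also without control replicate 2, at 0.65 (adjusted p = 0.111), control replicate 3, at 0.60 (adjusted p = 0.0866), control replicate 4, at 0.62 (adjusted p = 0.109), or LPS replicate 3, at 0.78 (adjusted p = 0.0607). With library totals and no scaling factors its adjusted p was 0.107, and with at least 10 counts in every sample 0.0618.

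Mx2, a gene of the dynamin-like GTPase family, measured 6.93, 4.29, 4.09 and 5.03 CPM in control mice and 21.6, 10.95 and 11.9 CPM in LPS-treated mice. The groups were apart, and the log2 fold change was 1.55 ± 0.28 (adjusted p = 0.00119). Xaf1, which binds an inhibitor of apoptosis, and Ifi27l2a, a small membrane protein, were also higher in each LPS-treated mouse than in any control mouse, with log2 fold changes of 1.27 and 1.43. Without LPS replicate 1 these 3 genes were still called, at log2 fold changes of 1.17 for Mx2, 0.81 for Xaf1 and 0.98 for Ifi27l2a.

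The IFIT proteins bind viral RNA and hold back its translation. Ifit1 measured 18.0, 9.21, 5.68 and 10.4 CPM in control mice and 68.6, 9.66 and 9.03 CPM in LPS-treated mice. It was far above the control range in LPS replicate 1 and inside it in LPS replicates 2 and 3, and Ifit1 was not called, at 1.44 ± 0.60 (adjusted p = 0.0971). With LPS replicate 1 left out its log2 fold change was -0.20 (adjusted p = 0.736). Ifit2 followed the same form, with 6.51, 2.40, 4.03 and 5.32 CPM in control mice and 31.1, 2.90 and 3.30 CPM in LPS-treated mice. Its log2 fold change was 1.46 ± 0.67 (adjusted p = 0.131) in all mice and -0.55 (adjusted p = 0.372) without LPS replicate 1. Ifit1 was called when LPS replicate 2, at 1.86 (adjusted p = 0.0428), or LPS replicate 3, at 1.87 (adjusted p = 0.0406), was left out, and Ifit2 when LPS replicate 2 was left out, at 1.92 (adjusted p = 0.0466).

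Ifit3, a relative of Ifit1, measured 18.4, 9.85, 10.6 and 14.8 CPM in control mice and 70.9, 21.5 and 16.3 CPM in LPS-treated mice. LPS replicate 3 was inside the control range and the other LPS-treated mice were above it. The call of Ifit3, at 1.44 ± 0.41 (adjusted p = 0.0212), was lost without LPS replicate 1, at 0.50 (adjusted p = 0.189), and without control replicate 2, at 1.32 (adjusted p = 0.0765), and its adjusted p in DESeq2 was 0.0515. Its near copy Ifit3b measured 3.04, 2.84, 2.44 and 3.58 CPM in control mice and 21.6, 4.90 and 2.80 CPM in LPS-treated mice. LPS replicate 3 was again inside the control range, and the log2 fold change was 1.72 ± 0.53 (adjusted p = 0.0315). The adjusted p of Ifit3b was 0.519 without LPS replicate 1, where the log2 fold change was 0.37. Without control replicates 1, 2, 3 or 4 the adjusted p of Ifit3b was 0.0524, 0.0846, 0.0555 and 0.0528, and with a replicate block 0.0717. Ifit3 and Ifit3b are similar in sequence, as are Oas1a and Oas1g, and the handling of reads matching more than 1 gene is not given in the sources used here, so the split of counts within these pairs is uncertain.

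Rsad2 encodes viperin, which makes a chain-terminating nucleotide, and Cmpk2 is the nucleotide kinase encoded beside it. Rsad2 measured 10.9, 7.89, 11.1 and 12.1 CPM in control mice and 65.8, 8.70 and 9.03 CPM in LPS-treated mice. Rsad2 exceeded every control mouse in LPS replicate 1 and was within the control range in LPS replicates 2 and 3, and the log2 fold change was 1.42 ± 0.56 (adjusted p = 0.0805). Cmpk2 measured 12.6, 7.76, 7.64 and 9.77 CPM in control mice and 29.7, 3.03 and 3.67 CPM in LPS-treated mice. The LPS-treated mice lay on both sides of the control range, with LPS replicate 1 above it and LPS replicates 2 and 3 below it, and Cmpk2 was not called, at 0.38 ± 0.60 (adjusted p = 0.695). When LPS replicate 1 was left out, the log2 fold change of Rsad2 was -0.24 (adjusted p = 0.505), and that of Cmpk2 was -1.49 (adjusted p = 0.00398), a lower call. Rsad2 was called without LPS replicate 2, at 1.84 (adjusted p = 0.0252), and without LPS replicate 3, at 1.84 (adjusted p = 0.0292).

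Mx1, a nuclear GTPase against influenza-like viruses whose gene is defective in C57BL/6 mice, measured 3.04, 1.64, 0.978 and 1.21 CPM in control mice and 13.4, 1.42 and 1.31 CPM in LPS-treated mice. LPS replicates 2 and 3 were inside the control range and LPS replicate 1 was above it. The log2 fold change of Mx1 was 1.68 ± 0.72 (adjusted p = 0.107) in all mice, -0.32 (adjusted p = 0.745) without LPS replicate 1, and 2.14 (adjusted p = 0.0493) without LPS replicate 3. Isg20, an RNA exonuclease, measured 2.34, 1.96, 0.917 and 0.968 CPM in control mice and 4.47, 3.48 and 1.37 CPM in LPS-treated mice. LPS replicates 1 and 2 were above every control mouse and LPS replicate 3 was not, and the log2 fold change was 1.02 ± 0.49 (adjusted p = 0.151) in all mice and 0.66 (adjusted p = 0.452) without LPS replicate 1.

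Bst2 encodes tetherin, which holds budding virions at the cell surface. It measured 105, 99.97, 101 and 75.0 CPM in control mice and 64.8, 37.5 and 43.9 CPM in LPS-treated mice. All 3 LPS-treated mice were below all 4 control mice, and Bst2 was called lower at -0.96 ± 0.20 (adjusted p = 0.00324). Of the LPS-treated mice LPS replicate 1 was again the highest, and without it the log2 fold change was -1.22 (adjusted p = 0.000656). Ifi27, a membrane protein of the nuclear envelope and mitochondria, measured 49.1, 60.4, 73.9 and 62.9 CPM in control mice and 62.3, 58.3 and 69.8 CPM in LPS-treated mice. All LPS-treated mice lay within the control range, and the log2 fold change was 0.04 ± 0.16 (adjusted p = 0.873). Ifi35, a partner of the interferon-induced protein Nmi, measured 31.8, 30.6, 24.9 and 25.5 CPM in control mice and 39.4, 24.2 and 24.0 CPM in LPS-treated mice. Ifi35 was above the control range in LPS replicate 1 and just below it in LPS replicates 2 and 3, with a log2 fold change of 0.05 ± 0.19 (adjusted p = 0.872). With counts scaled by library totals alone the log2 fold change was -0.08 for Ifi27 and -0.03 for Ifi35.

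The OAS family makes short oligoadenylates that switch on RNase L, an enzyme that cuts RNA. Of its 6 members, 4 were called higher and 2 were not, with a median log2 fold change of 1.68. The summed CPM was 30.3, 23.4, 17.2 and 19.5 in control mice and 102, 39.8 and 46.3 in LPS-treated mice. The LPS-treated mice all exceeded the control mice in this sum. Oas3, which answers to long double-stranded RNA, had the largest fold, with 1.63, 2.02, 1.344 and 0.968 CPM in control mice and 12.3, 4.57 and 4.54 CPM in LPS-treated mice. The groups did not overlap, and the log2 fold change was 2.27 ± 0.41 (adjusted p = 0.00141) in all mice and 1.62 (adjusted p = 0.0137) without LPS replicate 1. Oas1g had the smallest of the called folds, with 3.82, 1.20, 1.28 and 1.45 CPM in control mice and 7.65, 4.06 and 5.73 CPM in LPS-treated mice. Control replicate 1 came close to LPS replicate 2, and the other control mice were far below. The call of Oas1g, at 1.60 ± 0.43 (adjusted p = 0.0149), was lost without LPS replicate 1, at 1.35 (adjusted p = 0.0679), and without control replicate 2, at 1.42 (adjusted p = 0.0511).

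Oas1a measured 2.90, 2.84, 2.75 and 1.84 CPM in control mice and 13.2, 8.89 and 7.97 CPM in LPS-treated mice. It was above every control mouse in all 3 LPS-treated mice, and its log2 fold change was 1.96 ± 0.27 (adjusted p = 0.000187). Oasl2 measured 8.92, 7.19, 4.89 and 5.95 CPM in control mice and 39.2, 14.1 and 15.003 CPM in LPS-treated mice, and its log2 fold change of 1.77 ± 0.34 (adjusted p = 0.00194) became 1.12 (adjusted p = 0.00718) without LPS replicate 1. Oas2 measured 5.24, 3.79, 1.83 and 2.23 CPM in control mice and 10.9, 2.13 and 2.61 CPM in LPS-treated mice. It was above the control range in LPS replicate 1 alone, and Oas2 was not called, at 0.70 ± 0.54 (adjusted p = 0.382). Leaving out that mouse, the log2 fold change of Oas2 was -0.45 (adjusted p = 0.546). Oasl1, a relative that lacks synthetase activity and holds back the translation of IRF7, measured 7.78, 6.37, 5.13 and 7.02 CPM in control mice and 18.9, 6.06 and 10.5 CPM in LPS-treated mice. LPS replicate 2 was within the control range and LPS replicates 1 and 3 were above it. Oasl1 was not called, at 0.85 ± 0.32 (adjusted p = 0.0676), and was called in DESeq2, with an adjusted p of 0.0451, and without LPS replicate 2, at 1.17 (adjusted p = 0.0118). It was also called with no filter on low counts and with LPS replicates 2 and 3 summed, with an adjusted p of 0.00334 and 0.0368. Removing LPS replicate 1 brought Oasl1 to 0.33 (adjusted p = 0.449).

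Nucleic acid sensors detect viral or misplaced RNA and DNA. Of the 4 sensors, Zbp1 and Dhx58 were called higher and Ifih1 and Eif2ak2 were not, with a median log2 fold change of 0.68, or 0.28 without LPS replicate 1. Zbp1 binds left-handed nucleic acid and can start necroptosis. It measured 8.07, 6.69, 5.62 and 4.84 CPM in control mice and 42.6, 27.7 and 24.0 CPM in LPS-treated mice. The groups were far apart, and the log2 fold change of 2.33 ± 0.23 (adjusted p = 1.14e-05) was the largest of the 44 members. Without LPS replicate 1 it was 2.04 (adjusted p = 3.92e-05). Dhx58, the regulator LGP2 of the RIG-I-like receptors, measured 7.50, 7.57, 6.17 and 7.06 CPM in control mice and 22.0, 9.47 and 8.96 CPM in LPS-treated mice. The groups did not overlap, although LPS replicates 2 and 3 were close to the control mice. The call of Dhx58, at 0.94 ± 0.29 (adjusted p = 0.0317), was lost without LPS replicate 1, at 0.39 (adjusted p = 0.252). It was also lost without control replicates 2, 3 or 4, with an adjusted p of 0.0698, 0.0558 and 0.0647, with library totals and no scaling factors (0.0665) and with a replicate block (0.0576).

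Ifih1, the RNA sensor MDA5, measured 30.2, 29.0, 30.6 and 32.2 CPM in control mice and 53.8, 35.6 and 33.1 CPM in LPS-treated mice. It was the 1 member not called in which the LPS-treated mice all exceeded the control mice, at 0.42 ± 0.17 (adjusted p = 0.0917), and at 0.17 (adjusted p = 0.46) without LPS replicate 1. Eif2ak2, the kinase PKR that stops translation on double-stranded RNA, measured 11.5, 11.7, 15.5 and 15.6 CPM in control mice and 20.2, 11.1 and 11.8 CPM in LPS-treated mice. It was above the control range in LPS replicate 1, just below it in LPS replicate 2 and inside it in LPS replicate 3. The log2 fold change of Eif2ak2 was 0.09 ± 0.23 (adjusted p = 0.82) in all mice and -0.24 (adjusted p = 0.467) without LPS replicate 1.

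ISG15 is a ubiquitin-like protein that is joined to other proteins, and this class also held a ligase and a protease of ISG15, ubiquitin ligases and ADP-ribosyltransferases. Of its 8 members, 7 were called higher and Rnf213 was not, with a median log2 fold change of 0.80. The summed CPM was 208, 179.6, 203 and 211 in control mice and 480.5, 266 and 280.2 in LPS-treated mice. By this sum too the groups did not overlap. In the fit without LPS replicate 1, 4 were called higher. Usp18, which removes ISG15 and blocks signalling at IFNAR2, measured 5.94, 6.06, 6.97 and 9.63 CPM in control mice and 45.8, 18.6 and 17.4 CPM in LPS-treated mice. The groups did not overlap, and the log2 fold change was 1.93 ± 0.32 (adjusted p = 0.000678) in all mice and 1.33 (adjusted p = 0.00155) without LPS replicate 1. Dtx3l, a ubiquitin ligase, measured 30.9, 31.5, 38.8 and 45.7 CPM in control mice and 56.8, 57.2 and 53.8 CPM in LPS-treated mice. The 3 LPS-treated mice were alike and exceeded all control mice, and the log2 fold change was 0.61 ± 0.16 (adjusted p = 0.0136). Its call was lost without LPS replicate 2, at 0.59 (adjusted p = 0.0573), and with library totals and no scaling factors, with an adjusted p of 0.0924.

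Isg15 itself measured 13.4, 7.95, 8.07 and 5.37 CPM in control mice and 48.1, 10.9 and 12.1 CPM in LPS-treated mice. In LPS replicate 1 it was well above all control mice, and LPS replicates 2 and 3 were below control replicate 1 and above the other control mice. The call of Isg15, at 1.46 ± 0.46 (adjusted p = 0.0328), was lost without LPS replicate 1, at 0.41 (adjusted p = 0.376), and in DESeq2, with an adjusted p of 0.0793. Without control replicates 2, 3 or 4 the adjusted p of Isg15 was 0.0918, 0.0532 and 0.0854. Rnf213, a very large ubiquitin ligase, measured 78.6, 50.1, 52.0 and 53.2 CPM in control mice and 126, 56.2 and 63.9 CPM in LPS-treated mice. LPS replicates 2 and 3 lay between control replicate 1 and the other control mice, and Rnf213 was not called, at 0.49 ± 0.26 (adjusted p = 0.187), nor without LPS replicate 1, at 0.04 (adjusted p = 0.907). With no filter on low counts it was called, with an adjusted p of 0.0218.

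The other 4 members of the class were higher in each LPS-treated mouse than in any control mouse. Trim30a, a TRIM protein that dampens Toll-like receptor signalling, was at a log2 fold change of 1.39 ± 0.24 (adjusted p = 0.000864). Herc6, the mouse ligase for ISG15, was at 0.87 ± 0.22 (adjusted p = 0.0122), and without LPS replicate 1 at 0.50 (adjusted p = 0.0716). Parp9, the partner of Dtx3l, was at 0.73 ± 0.18 (adjusted p = 0.00965), and its call was lost with library totals and no scaling factors, with an adjusted p of 0.0565. Parp14, a mono-ADP-ribosyltransferase, was at 0.62 ± 0.21 (adjusted p = 0.044), and without LPS replicate 1 at 0.26 (adjusted p = 0.273). The adjusted p of Parp14 was 0.0671, 0.117 and 0.0821 without control replicates 1, 2 and 4. It was 0.135 with library totals and no scaling factors, 0.0544 with at least 10 counts in every sample and 0.0744 with a replicate block.

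**Figure D2:**
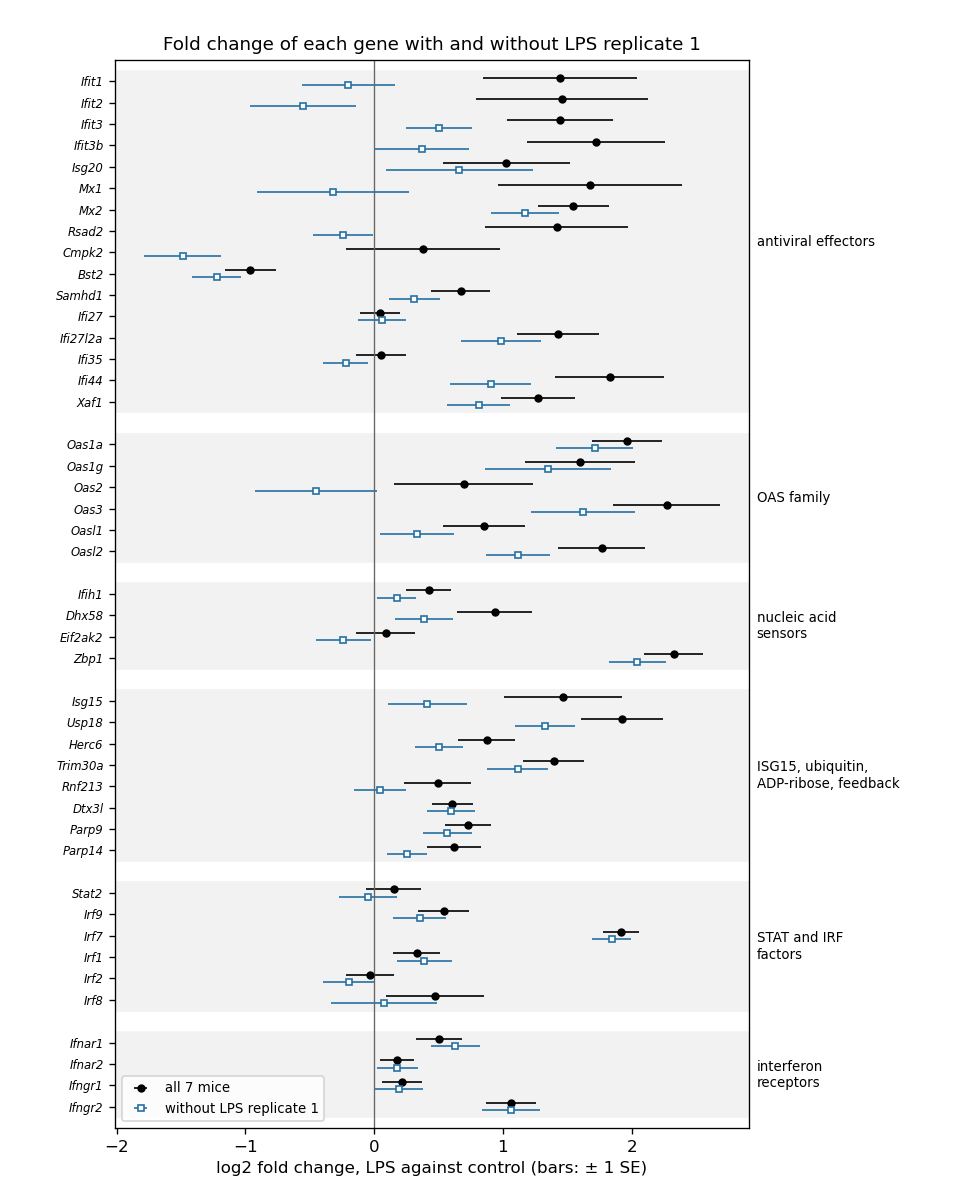
Log2 fold change of each of the 44 members in LPS-treated against control mice (horizontal axis, bars ± 1 SE), from all 7 mice (filled circles) and without LPS replicate 1 (open squares), with genes grouped by role on the vertical axis. Irf7 was at 1.92 with all mice and at 1.85 without LPS replicate 1, while Ifit1 was at 1.44 and at -0.20.

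STAT and IRF factors carry the signal to the genome. Of the 6 factors, Irf7 was called higher and 5 were not called, with a median log2 fold change of 0.40, or 0.22 without LPS replicate 1. Of all genes tested 13.3% were called higher, and 1 of 6 factors is near that share. With no filter on low counts, Irf9 was called higher as well. IRF7 is made in response to interferon and drives the later wave of interferon alpha genes. Irf7 measured 23.6, 24.6, 24.5 and 20.4 CPM in control mice and 96.6, 86.1 and 80.6 CPM in LPS-treated mice. The control mice were alike, the LPS-treated mice were alike, and the groups were far apart. The log2 fold change was 1.92 ± 0.14 (adjusted p = 6.73e-07), the smallest adjusted p of the 44 members, and between 1.85 and 1.98 in the fits that left out 1 mouse.

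Stat2, the interferon-specific STAT, measured 90.4, 66.5, 49.7 and 55.0 CPM in control mice and 91.4, 67.6 and 58.5 CPM in LPS-treated mice. The highest LPS-treated and control mice were level and the groups overlapped, with a log2 fold change of 0.15 ± 0.21 (adjusted p = 0.66) in all mice and -0.05 (adjusted p = 0.908) without LPS replicate 1. Irf9, the DNA-binding partner of STAT2, measured 29.1, 19.9, 29.0 and 20.0 CPM in control mice and 44.1, 33.4 and 29.1 CPM in LPS-treated mice. LPS replicates 1 and 2 were above all control mice and LPS replicate 3 was level with control replicates 1 and 3. Irf9 was not called, at 0.54 ± 0.20 (adjusted p = 0.0593), and was called in DESeq2, with an adjusted p of 0.049. Without control replicate 1, at 0.63 (adjusted p = 0.0382), or control replicate 3, at 0.63 (adjusted p = 0.0346), it was called as well, and without LPS replicate 1 it was at 0.36 (adjusted p = 0.248).

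Irf1, an activator that interferon gamma induces strongly, measured 28.4, 25.7, 18.0 and 18.3 CPM in control mice and 26.1, 30.6 and 28.4 CPM in LPS-treated mice. LPS replicate 2 was just above all control mice and LPS replicates 1 and 3 were level with control replicates 1 and 2, and the log2 fold change was 0.33 ± 0.18 (adjusted p = 0.213). Irf2, which competes with IRF1 on DNA, measured 51.7, 32.0, 48.8 and 43.1 CPM in control mice and 52.1, 40.8 and 35.5 CPM in LPS-treated mice. The groups overlapped widely, at -0.03 ± 0.19 (adjusted p = 0.919). Irf8, a factor of macrophages and dendritic cells, measured 4.74, 4.73, 4.64 and 1.74 CPM in control mice and 8.07, 4.19 and 4.11 CPM in LPS-treated mice. It exceeded every control mouse in LPS replicate 1, LPS replicates 2 and 3 were slightly below 3 of the control mice, and control replicate 4 was well below the rest. The log2 fold change of Irf8 was 0.48 ± 0.38 (adjusted p = 0.399), and 0.08 (adjusted p = 0.919) without LPS replicate 1 and 0.21 (adjusted p = 0.691) without control replicate 4.

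Interferon receptors are the entry of the pathway. Of the 4 receptor chains, Ifngr2 was called higher and 3 were not called, with a median log2 fold change of 0.36. Of all genes tested 13.3% were called higher, and a class of 4 genes is too small to set apart from that share. Their summed CPM was 105, 115, 114 and 105 in control mice and 135, 144 and 139 in LPS-treated mice. The groups did not overlap in this sum, and LPS replicate 1 was the lowest of the LPS-treated mice. Ifngr2, the signalling chain of the interferon gamma receptor, measured 7.93, 7.26, 8.25 and 11.8 CPM in control mice and 18.6, 19.9 and 16.9 CPM in LPS-treated mice. The groups did not overlap, and the log2 fold change was 1.06 ± 0.20 (adjusted p = 0.00149) in all mice and 1.06 (adjusted p = 0.00559) without LPS replicate 1. Ifngr1, the chain that binds interferon gamma, measured 16.6, 18.1, 22.1 and 16.3 CPM in control mice and 21.9, 19.4 and 22.3 CPM in LPS-treated mice. The groups overlapped, at 0.22 ± 0.16 (adjusted p = 0.354).

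Ifnar1 measured 15.4, 18.6, 23.6 and 21.3 CPM in control mice and 23.1, 32.3 and 28.8 CPM in LPS-treated mice. LPS replicates 2 and 3 were above all control mice and LPS replicate 1 was level with control replicate 3. Ifnar1 was not called in all mice, at 0.50 ± 0.18 (adjusted p = 0.0549), and was called without LPS replicate 1, at 0.63 (adjusted p = 0.035), or control replicate 3, at 0.60 (adjusted p = 0.027). It was also called with no filter on low counts and with a replicate block, with an adjusted p of 0.0346 and 0.0419. Ifnar2, which encodes the other chain of the type I receptor, measured 65.5, 71.1, 60.4 and 55.8 CPM in control mice and 71.3, 72.0 and 70.7 CPM in LPS-treated mice. The LPS-treated mice were level with control replicate 2, and the log2 fold change was 0.18 ± 0.13 (adjusted p = 0.373), and 0.11 (adjusted p = 0.62) without control replicate 4.

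To compare levels between members, CPM was divided by the length of each gene's exons in kb. On this scale the control means ran from 0.211 CPM per kb for Oas3 to 106 CPM per kb for Bst2. Ifi27 followed Bst2 at 42.0 CPM per kb and Ifnar2 at 19.0 CPM per kb in control mice. Bst2 had the highest level per kb of the 44 members in each of the 7 mice. Ifi27 came next in each mouse but LPS replicate 1, where Isg15 did. The lowest level per kb was that of Oas3 in each control mouse, Irf8 in LPS replicate 1 and Mx1 in LPS replicates 2 and 3.

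The promoters of the members were read for the response elements of the pathway. RefSeq promoter windows of GRCm38.p6, from 250 bases before to 50 bases after the start of transcription, were matched by symbol for 34 of the 44 members. The core of the interferon-stimulated response element was searched as GAAANNGAAA and the gamma-activated site as TTCNNNGAA, on both strands, where N is any base and matches may overlap. At least 1 response element core was found in 14 of the 34 members, or 41.18%, and in 3.99% of the 27025 genes with a window. A gamma-activated site was found in 12 of the 34, or 35.29%, and in 9.55% of all genes with a window. Of the 15 members called higher that had a window, 7 held the response element core, as did 6 of the 18 not called. The 7 include Ifit3 and Ifit3b, whose matched letters are the same, and Oas1a and Oas1g, whose matched letters are also the same. These similar genes are not independent promoters. The gamma-activated site was in 2 of the 15 called higher and 9 of the 18 not called. A gene was counted if any of its windows held the letters. Among the 9 not called, Ifit2, Isg20, Irf1 and Irf8 had more than 1 window, and of those called higher only Trim30a had. These counts therefore do not compare equal lengths of sequence. A match is a description of letters and was not tested as a binding site.

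The windows of 5 members are printed to show promoters of genes with different patterns, 5′ to 3′ on the strand of the gene, with the response element core in capitals. Ifit1, which was high in LPS replicate 1 alone, is at chr19:34640639-34640938 on the plus strand, and its matches, on the opposite strand, begin at bases -104 and -85 from the start of transcription. Isg15, at chr4:156200769-156201068 on the minus strand, has 3 overlapping matches that begin at bases -78, -72 and -66. Oas1a, which was called higher in every fit that left out 1 mouse, is at chr5:120907476-120907775 on the minus strand, with overlapping matches from bases -20 and -14. Bst2, which fell, is at chr8:71537423-71537722 on the minus strand, with overlapping matches from bases -130 and -124. Irf7, with the smallest adjusted p, is at chr7:141266375-141266674 on the minus strand, and the letters searched are not in this window.
Ifit1: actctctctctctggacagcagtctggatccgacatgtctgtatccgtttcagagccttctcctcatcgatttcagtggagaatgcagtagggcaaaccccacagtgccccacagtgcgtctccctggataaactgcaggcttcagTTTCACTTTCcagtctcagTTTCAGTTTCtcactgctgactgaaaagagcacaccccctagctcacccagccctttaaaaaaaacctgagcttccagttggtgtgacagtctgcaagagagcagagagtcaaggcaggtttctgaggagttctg
Isg15: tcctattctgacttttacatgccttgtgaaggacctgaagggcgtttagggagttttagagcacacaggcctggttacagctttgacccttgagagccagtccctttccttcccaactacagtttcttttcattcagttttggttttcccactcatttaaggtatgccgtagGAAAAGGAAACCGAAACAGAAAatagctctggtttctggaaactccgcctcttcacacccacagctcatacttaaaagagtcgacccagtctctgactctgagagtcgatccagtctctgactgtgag
Oas1a: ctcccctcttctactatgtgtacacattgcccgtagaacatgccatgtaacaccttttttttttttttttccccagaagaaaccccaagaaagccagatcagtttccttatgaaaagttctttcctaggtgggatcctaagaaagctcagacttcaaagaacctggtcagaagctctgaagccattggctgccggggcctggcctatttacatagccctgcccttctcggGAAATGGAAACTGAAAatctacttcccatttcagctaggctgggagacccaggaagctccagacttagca
Bst2: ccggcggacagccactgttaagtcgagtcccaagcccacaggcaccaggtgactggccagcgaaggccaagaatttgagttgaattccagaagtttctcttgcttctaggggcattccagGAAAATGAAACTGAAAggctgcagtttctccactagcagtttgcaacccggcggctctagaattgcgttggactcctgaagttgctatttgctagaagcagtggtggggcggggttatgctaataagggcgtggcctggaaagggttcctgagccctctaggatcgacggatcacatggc
Irf7: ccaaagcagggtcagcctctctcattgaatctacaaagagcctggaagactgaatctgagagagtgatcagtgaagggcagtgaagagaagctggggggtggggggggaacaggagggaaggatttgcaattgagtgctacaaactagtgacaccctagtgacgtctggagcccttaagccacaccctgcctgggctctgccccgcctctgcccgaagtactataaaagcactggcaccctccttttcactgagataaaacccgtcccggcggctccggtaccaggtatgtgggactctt

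The interferons themselves were almost unseen at 24 h. Of 21 interferon ligand genes, 18 had no count in any mouse, every gene of interferon alpha among them, and none of the 21 had enough counts to be tested. Ifnb1, interferon beta, had 1 count, in LPS replicate 1. Ifnk had 4, 0, 3 and 0 counts in control mice and 0, 0 and 1 in LPS-treated mice, and Ifng, interferon gamma, had 5, 0, 0 and 1 counts in control mice and 0, 0 and 2 in LPS-treated mice. A count of 0 allows a level of up to 3 counts, which was between 0.138 and 0.212 CPM in these libraries, and a difference in the ligands was not detectable at this depth. This limit covers counting error only.

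Of 5 tested genes for receptor kinases, further STATs and lambda receptor chains, Stat3 was called higher, at 1.66 ± 0.18 (adjusted p = 2.98e-05), and 4 were not called, with 2 called higher without control replicate 3 or LPS replicate 2. Jak1 was at 0.41 ± 0.15 (adjusted p = 0.0612), and was called without control replicate 3, at 0.46 (adjusted p = 0.0375), in DESeq2, with an adjusted p of 0.0482, and with a replicate block, with 0.0497. Tyk2 was at -0.39 ± 0.20 (adjusted p = 0.176), and at -0.23 (adjusted p = 0.398) without control replicate 1. Of 14 tested genes that lead to interferon production, 5 were called higher and 2 lower. Of all genes tested 13.3% were called higher and 13% lower, and 2 of 14 lower is near that share. Without control replicate 4 or without any 1 of the LPS-treated mice, 3 of these genes were called higher. The kinase gene Ikbke measured 16.2, 13.8, 11.9 and 9.10 CPM in control mice and 37.5, 40.1 and 47.6 CPM in LPS-treated mice, with a log2 fold change of 1.71 ± 0.19 (adjusted p = 2.93e-05), and the LPS receptor adaptors Myd88 and Ticam1, which encodes TRIF, were at 1.01 ± 0.18 (adjusted p = 0.00129) and 1.11 ± 0.25 (adjusted p = 0.00531). Irf5 fell, at -1.27 ± 0.22 (adjusted p = 0.00109), and Irf3, the factor that switches on interferon beta, measured 47.3, 44.6, 43.9 and 42.9 CPM in control mice and 33.6, 34.6 and 34.5 CPM in LPS-treated mice. All LPS-treated mice were below all control mice in Irf3, whose log2 fold change was -0.38 ± 0.13 (adjusted p = 0.0411). The call of Irf3 was lost without any 1 of control replicates 1, 2 and 4 and LPS replicates 1, 2 and 3, with an adjusted p of 0.0642, 0.0541, 0.0564, 0.109, 0.135 and 0.13. It was also lost with no filter on low counts, a replicate block or LPS replicates 2 and 3 summed, at 0.145, 0.0774 and 0.134.

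Of 5 tested negative regulators of interferon signalling, 3 were called higher and 2 were not called. Socs3, which blocks cytokine receptors, measured 2.69, 9.85, 8.80 and 6.77 CPM in control mice and 40.1, 54.1 and 63.7 CPM in LPS-treated mice. The groups were far apart, at 2.90 ± 0.32 (adjusted p = 2.61e-05). The phosphatase genes Ptpn2 and Ptpn6 were at 1.14 ± 0.15 (adjusted p = 9.45e-05) and 1.05 ± 0.18 (adjusted p = 0.000937). Socs1 had 3, 4, 0 and 1 counts in control mice and 16, 2 and 14 in LPS-treated mice, too few to be tested.

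A further list of 62 tested interferon-stimulated genes outside the 44 held 29 called higher and 1 called lower, with a median log2 fold change of 0.67. Ifitm2, which blocks viral entry, measured 87.0, 109.9, 100.3 and 86.7 CPM in control mice and 392.3, 475 and 513 CPM in LPS-treated mice. LPS replicates 2 and 3 were higher than LPS replicate 1 in this gene, and all were above the control mice, at 2.26 ± 0.15 (adjusted p = 4.67e-07). The Schlafen genes Slfn2 and Slfn4 were at 2.97 ± 0.19 (adjusted p = 2.22e-07) and 5.53 ± 0.59 (adjusted p = 2.10e-05). Apol9b was called lower, at -1.13 ± 0.34 (adjusted p = 0.0258), with 79.4, 27.1 and 27.6 CPM in LPS-treated mice against a control mean of 98.3 CPM. The call of Apol9b was lost without control replicates 1 or 2 or LPS replicates 2 or 3, with an adjusted p of 0.0519, 0.0534, 0.115 and 0.119, and without LPS replicate 1 the log2 fold change was -1.84 (adjusted p = 8.18e-05).

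Markers of other cells differed between the groups as well. Of 7 tested neutrophil markers all 7 were called higher, and of 5 monocyte markers 4 were. The summed CPM of the neutrophil markers was 5.17, 4.23, 1.53 and 2.85 in control mice and 200.4, 142 and 141 in LPS-treated mice, with Csf3r the most abundant in each control mouse and S100a9 in each LPS-treated mouse. The summed CPM of the monocyte markers was 13.4, 10.6, 6.72 and 8.23 and 78.5, 64.6 and 74.8, with Plac8 the most abundant in each mouse but LPS replicate 2, where Chil3 was. Among LPS-treated mice LPS replicate 1 was the highest in both sums. Of 8 hepatocyte markers, 3 were called higher and 3 lower, with sums of 66600.3, 65448, 89586 and 77378 CPM in control mice and 60974, 73388 and 74523 CPM in LPS-treated mice. Alb held 62.8% of the control mean of this sum and was the most abundant in each control mouse and in LPS replicate 1, and Fgb was in LPS replicates 2 and 3. Among sinusoidal endothelial markers 2 of 7 were called higher and 2 lower, with sums of 112, 143, 92.3 and 125 in control mice and 149, 79.4 and 78.4 in LPS-treated mice, and Pecam1 the most abundant in each LPS-treated mouse. Without LPS replicate 2 or LPS replicate 3, 1 hepatocyte marker was called lower. For the endothelial markers 1 was called lower without control replicates 2 or 4 or LPS replicates 2 or 3. Among stellate cell markers 2 of 5 were called lower, among B cell markers 2 of 4, and Cd4 was the 1 tested marker of T and NK cells and was called lower. Of the stellate cell markers 1 was called lower without control replicate 4 or LPS replicates 1 or 2, and of the B cell markers 1 without control replicates 1, 2 or 3 or LPS replicates 1 or 2. With edgeR none of 3 tested markers of conventional dendritic cells was called in all mice, and by DESeq2 or at unadjusted p < 0.05 it was 0 as well. The 5 markers of plasmacytoid dendritic cells, which make much interferon alpha, had too few counts to be tested and summed to 2.26, 2.21, 1.47 and 1.98 CPM in control mice and 0.968, 0.580 and 0.809 CPM in LPS-treated mice. Of the marker genes of these lists none was at 0 in all mice. The part of these cells in the levels of the 44 members was not tested.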

How the data were processed

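Poly(A) RNA of 7 mouse livers, 4 control and 3 LPS-treated, was sequenced on an MGISEQ2000 with strand-specific libraries. The authors deposited raw counts of reads per gene, which were made before deposit with cutadapt 1.9.1, HISAT2 2.2.1 and HTSeq 0.6.1 on GRCm39 and were not normalized, per the submitters' processing notes, which also name DESeq2 1.34.0. The counting mode and the handling of multi-mapped reads are not given in the sources used here, so the counts of Ifit3 and Ifit3b and of Oas1a and Oas1g are uncertain between the genes of a pair.

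Genes were filtered with filterByExpr, library sizes were adjusted with TMM factors, and the LPS effect was tested in edgeR 4.0.16 (quasi-likelihood, R 4.3.3) with condition alone in the design. The p-values were adjusted over all 13683 genes tested, and the standard error is the absolute log2 fold change divided by the square root of F. Both tools were tested on simulated data, and the outcome is not given here. The alternatives were DESeq2 1.42.0, other scaling factors, library sizes, filters and thresholds, a replicate block, leaving out each mouse and summing LPS replicates 2 and 3. Per kb levels used exon lengths of GENCODE M21, which is of an older build than the counts.

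The members and lists were chosen with earlier results of these data known. Values of each sample were given for the called members with the smallest and largest fold change of each class, for members called against the direction of their class and for members not called, and for some others. Of each pathway list, up to 3 called genes with the smallest p in each direction were named, beside each ligand with a count and Jak1, Tyk2, Irf3, Socs1 and Socs3. A further gene of these lists is not analysed here.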

Additional observations from a re-analysis of the deposited data

Results flagged for a closer look

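In 5 of the 51 groups of control values looked at, 1 control mouse stood apart from the other 3, with the gap to its nearest neighbour divided by the range of the 4 mice past Dixon's 95% critical value. Chance flags about 1 in 20 groups. Control replicate 4 was low in Bst2 (ratio 0.832), in Oas1a (0.857) and in Irf8 (0.968). Control replicate 1 was high in Oas1g (0.904) and in Rnf213 (0.892). Why these mice stood apart was not tested.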

How the results depend on the processing

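At adjusted p < 0.01, 13 members were called higher, and 1091 genes of all tested were higher and 993 lower. At adjusted p < 0.05 with a log2 fold change beyond 1, 0 members were lower by edgeR, and 1068 genes of all tested were higher and 1000 lower. DESeq2 and the count at unadjusted p < 0.05 also gave 0 members lower with that fold, and the fit without LPS replicate 1 gave 2, Bst2 and Cmpk2. Leaving out each mouse in turn gave 14 to 25 members higher, 1 to 2 lower, and of all genes tested 1290 to 1906 higher and 1146 to 1868 lower. DESeq2 called Oasl1 and Irf9 as well and lost Ifit3 and Isg15, and it gave no adjusted p for Ifit1, Ifit2, Mx1, Rsad2 and Cmpk2. With library totals and no scaling factors, Samhd1, Dhx58, Dtx3l, Parp9 and Parp14 were not called. Of all genes tested, 1350 were called higher and 2057 lower under this scaling, against 1825 and 1773 in the main fit. With no filter on low counts, 30 members were called higher, with Ifit1, Ifit2, Mx1, Rsad2, Oasl1, Rnf213, Irf9 and Ifnar1 added, and 2065 of the 23651 genes tested were. With at least 10 counts in every sample, Samhd1 and Parp14 were not called. With LPS replicates 2 and 3 summed into 1 sample, Ifit1, Rsad2 and Oasl1 were called higher as well.

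Some log2 fold changes turned direction, and the cause was not tested. With library totals and no scaling factors the log2 fold change was -0.0821 for Ifi27, -0.0313 for Ifi35 and -0.00775 for Eif2ak2. With LPS replicates 2 and 3 summed, it was 0.0471 for Irf2. Leaving out each mouse in turn gave from -0.20 to 1.87 for Ifit1, -0.55 to 1.92 for Ifit2, -0.32 to 2.14 for Mx1, -0.24 to 1.84 for Rsad2, -1.49 to 0.83 for Cmpk2, -0.0544 to 0.14 for Ifi27, -0.22 to 0.18 for Ifi35, -0.45 to 1.07 for Oas2, -0.24 to 0.24 for Eif2ak2, -0.0476 to 0.34 for Stat2 and -0.20 to 0.0854 for Irf2.

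The numbers of control and LPS-treated mice were not taken as pairs. Deviations of mice with the same number correlated at 0.18, -0.06 and 0.07, and those of mice with different numbers at -0.14 to 0.10. The 0.18, of control replicate 1 with LPS replicate 1, was the highest of all pairs. Among control replicates 1 to 3, the same-numbered mouse had the highest correlation for LPS replicates 1 and 3 and not for LPS replicate 2. With a replicate block, the log2 fold change was -0.32 for Cmpk2 and -0.0247 for Ifi35. The replicate block lost the calls of Ifit3b, Dhx58 and Parp14 and added Ifnar1.

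With 3 LPS-treated mice, of which LPS replicate 1 stood apart, 9 of the 22 higher calls were lost when LPS replicate 1 was left out. Bulk liver does not show which cells held the RNA. A single time point was measured, and proteins were not analysed here. Absence of a call does not show an equal level. Genes with few counts, such as the interferon ligands, are limited by depth. The promoter windows and exon lengths come from an older build than the counts, and 10 members, Parp9, Ifi27l2a, Parp14, Usp18, Mx2, Oas2, Zbp1, Ifi27, Dhx58 and Mx1, had no window matched by symbol.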
